A study of Mus musculus with 10 samples.

Results

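Immediate early genes are transcribed within minutes of a stimulus, from factors already present in the cell and without new protein synthesis. The 10 described here are Fos, Fosb, Jun, Junb and Jund, which encode subunits of the dimeric transcription factor AP-1, the zinc finger factor gene Egr1, the stress-induced factor gene Atf3, and Ier2, Btg2 and Dusp1. They were taken by symbol from the 19782 genes of the deposited table, and all 10 were found. Fos proteins bind DNA as partners of Jun proteins, and dimers of the family bind AP-1 sites or the related cAMP response element. Kinases of the MAP kinase family and the serum response factor SRF switch many of these genes on. In microglia, the resident macrophages of the brain, they respond to injury and inflammatory signals, and they are also known to rise while tissue is taken apart for cell sorting. How the tissue was dissociated is not given in the sources used here.

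The cells were hippocampal microglia sorted as CD45low CD11b+ and profiled by Smart-Seq, which amplifies full-length cDNA from small amounts of RNA. The group called wild-type 1 to 4 is 4 libraries from wild-type mice on normal diet. The group called control 1 to 3 is 3 libraries from mice of the 5xFAD line, also on normal diet. This line carries human transgenes with familial Alzheimer's disease mutations under the neuronal Thy1 promoter and models amyloid deposition. A further 3 libraries, called repopulated 1 to 3, came from 5xFAD mice given PLX3397 at 290 mg per kg of chow for 1 month from the age of 4 months, and then normal diet for 1 month while microglia returned. PLX3397 blocks signalling through the receptor for CSF1, which microglia need to survive. Both 5xFAD groups thus share the transgenes and differ in the drug. The age of the other groups is not given in the sources used here, nor is whether each library came from a separate animal, so p-values measure only the spread between libraries, part of which may be technical. The comparisons bear on how 5xFAD microglia differ from wild-type microglia, and on whether repopulated cells differ from either.

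Libraries held 18501136 to 23286814 counts. All 12 microglia markers were detected in every library, at a summed 47674 to 60346 counts after scaling each library to the same size (CPM), against 4.68 to 67.5 CPM for 10 neuron markers. Wild-type 3 stood apart, with the highest summed neuron (67.5 CPM), astrocyte (565 CPM) and erythrocyte (283 CPM) markers. It correlated with its group at a mean r of 0.92, where the remaining wild-type libraries had 0.944 to 0.956. In wild-type 2, control 1 and control 3, the sum over 4 Y-linked genes was only 5.61 to 15.5 CPM, whereas it reached 341.5 to 527.8 CPM elsewhere. Control 2 was thus the only control library with them, while all 3 repopulated libraries had them. Such transcripts mark male cells, and the sources used here do not give sex. The libraries within the wild-type group, and within the control group, are therefore not all repeats of 1 sample. The comparison of repopulated with control nearly follows the Y-linked difference, and with a term for it 1 gene was called there in place of 71. In bulk RNA, fewer cells of a type and less RNA per cell cannot be told apart.

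Promoter sequence was at hand in RefSeq (build GRCm38.p6) for 8 of the 10 genes, and 4 of them carry an AP-1-like site, TGANNTCA, on either strand within 250 bases before the start of transcription. Stretches around these sites are shown because the 4 genes share the letters. As given further on, only Btg2 among them was called in any comparison. Capitals mark matches to TGANNTCA and, in Btg2, also a match to the Egr site GCGNGGGCG. All read 5′ to 3′ on the strand of the gene.
Btg2, chr1:134079258-134079341, minus strand: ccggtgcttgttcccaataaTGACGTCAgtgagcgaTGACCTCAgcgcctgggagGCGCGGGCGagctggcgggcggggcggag
Dusp1, chr17:26508588-26508635, minus strand: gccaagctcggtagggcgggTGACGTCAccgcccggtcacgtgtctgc
Jun, chr4:95052240-95052287, minus strand: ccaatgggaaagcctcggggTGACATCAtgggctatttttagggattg
Jund, chr8:70697658-70697705, plus strand: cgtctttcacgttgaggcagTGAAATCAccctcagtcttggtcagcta
TGANNTCA occurs in 11.9% of the 32841 promoter windows of this length. In Btg2 and Dusp1 the match is the full cAMP response element TGACGTCA, itself a TGANNTCA, which 1.55% of windows hold. In Btg2 it lies 166 to 159 bases before the start, and in Dusp1 143 to 136 bases before it. The Egr site GCGNGGGCG, in 4.7% of windows, was found in Btg2 and Fosb. The shorter AP-1 site TGANTCA, in 6.75% of windows, and the CArG box bound by SRF, in 1.47%, were in none of the 8 windows, which says only that these letters are not there. A match is a description and not a bound site.

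The genes spanned a wide range of levels. On the deposited TPM scale, which accounts for transcript length and library size, Btg2 had the highest level in every library, with a median of 105 TPM over the 10 libraries and a range of 38.2 to 128. Its mean TPM over the 10 libraries lay above that of 88.1% of the 12505 genes tested. Atf3 came second by median at 21.5 TPM, with a range of 11.7 to 33.9. Below these, neighbours overlapped. Ier2 had a median of 11.5 TPM (range 2.97 to 19.03), Junb 8.5 TPM (2.16 to 20.3), Jun 5.53 TPM (4.11 to 10.4) and Jund 4.83 TPM (4.06 to 9.31). Dusp1 followed at 3.40 TPM (2.12 to 6.52) and Egr1 at 2.98 TPM (1.38 to 5.61). The order among these 6 changed from library to library, and their ranges do not separate them. Fos, often taken as the emblem of the family, had a median of 0.585 TPM (0 to 1.8), with only 11.2% of tested genes lower by mean TPM. Fosb was nearly silent at 0.02 TPM (0 to 0.15). The plot of levels per length shows this order.

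**Figure D1:**
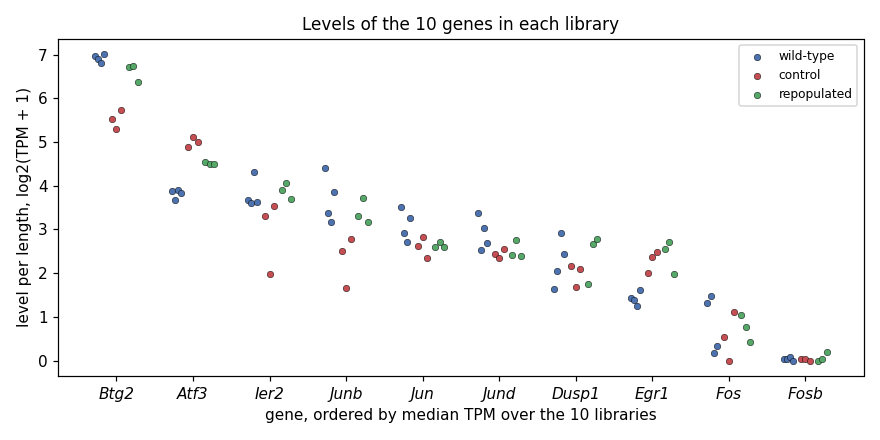
Level per length of the 10 genes in each of the 10 libraries, as log2(TPM + 1) on the vertical axis, with genes ordered by their median TPM. Each point is 1 library, coloured by group; Btg2 (median 105 TPM) is above every other gene in all libraries, and Fosb (median 0.02 TPM) lies near 0.

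Across groups, the genes did not move as a block. In 5xFAD control microglia, Egr1 and Atf3 were higher and Junb and Btg2 lower than in wild type, while no difference was called for Fos, Jun, Jund, Ier2 and Dusp1. In repopulated microglia Egr1 stayed at the control level, Btg2 overlapped with the wild-type levels and Atf3 lay between both groups. Of the 9 genes that passed the filter on low counts, 4 were called between control and wild type at an adjusted p under 0.05 (quasi-likelihood test of edgeR, adjusted over all tested genes by Benjamini-Hochberg). In that comparison 18.1% of all 12505 genes were called, 10.1% as higher and 8.04% as lower in control. The members were called 2 in each direction. Their median log2 fold change was -0.24, against -0.06 for all tested genes. Between repopulated and control, Btg2 alone was called, as higher, against 0.568% of all genes called (0.352% higher). Between repopulated and wild type, Egr1 and Atf3 were called, both higher, against 4.18% of all genes (3.4% higher). The medians of the 9 genes were 0.17 and -0.12 in these comparisons, against 0 and -0.02 for all genes. The control libraries enter 2 of the 3 comparisons, as do the libraries of each other group, so the comparisons are not independent of each other.

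**Figure D2:**
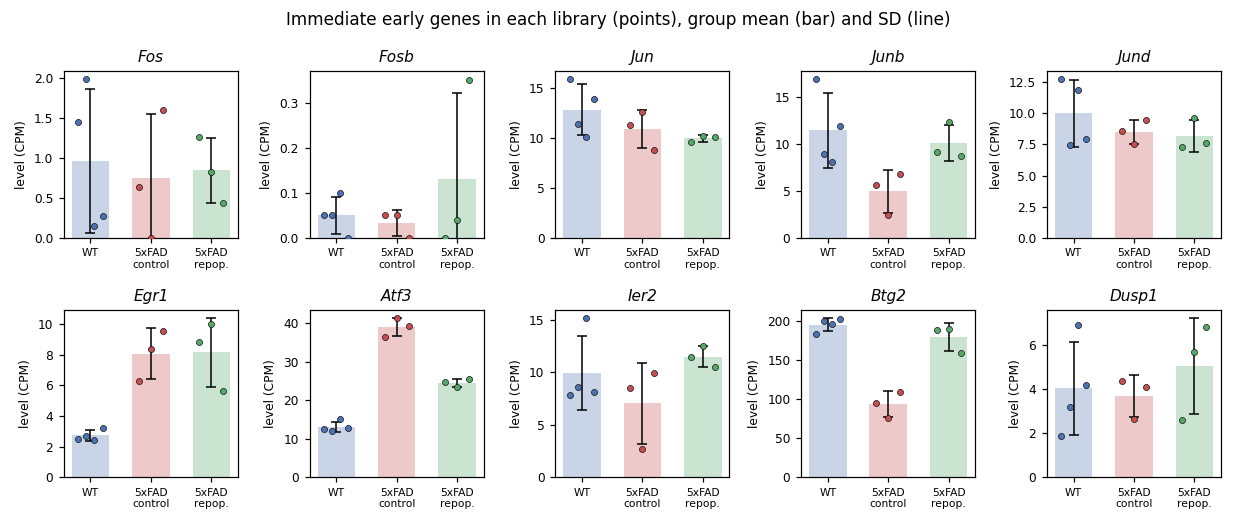
Level (CPM) of each of the 10 genes in the 4 wild-type, 3 control and 3 repopulated libraries, with bars for the group mean and lines for the SD, cut off at 0; the vertical scale differs between panels. Atf3 and Egr1 are higher in the control than in the wild-type libraries, Btg2 and Junb lower, and only Egr1 and Atf3 are above the wild-type libraries in all repopulated libraries.

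Atf3 (Entrez 11910, chr1:191170296-191183333) encodes a basic leucine zipper factor that is induced by many stresses and pairs with Jun proteins. It stood at 36.5, 41.3 and 39.2 CPM in control 1 to 3, at 24.8, 23.4 and 25.4 CPM in repopulated 1 to 3, and at 12.4, 12.1, 15.0 and 12.8 CPM in wild-type 1 to 4. The 3 groups formed separate steps, with no overlap between any of them. The mean was 39.0 ± 2.39 CPM (SD, n = 3) in control and 13.1 ± 1.34 CPM (SD, n = 4) in wild type. This is a 2.98-fold difference, with a log2 fold change of 1.58 (SE 0.15, 95% interval 1.27 to 1.89, adjusted p = 4.2e-06). The repopulated mean of 24.5 ± 1.01 CPM (SD, n = 3) was 1.88-fold above wild type, with a log2 fold change of 0.91 and an adjusted p of 0.0015. Both of these calls held under all 23 alternatives tried. Against control, the repopulated libraries were lower by a log2 fold change of -0.67 (interval -1 to -0.34), which missed the threshold at an adjusted p of 0.0662. That difference was called by DESeq2 (adjusted p = 0.00305), by limma-voom (0.0443), with the 2 groups fitted alone (0.0224), after correction for GC content and length (0.0422), and without wild-type 3 (0.0298). It stayed uncalled in 18 of the 23 alternatives, such as without control 2 (0.24) and with a block for the replicate number (0.119). The log2 fold change ran from -0.79 to -0.63 over the alternatives.

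Egr1 (Entrez 13653) encodes an early growth response factor that follows MAP kinase signalling. Control 1 to 3 held 6.31, 8.36 and 9.57 CPM and repopulated 1 to 3 held 8.86, 9.99 and 5.66 CPM, against 2.51, 2.71, 2.43 and 3.24 CPM in wild-type 1 to 4. Every 5xFAD library was above every wild-type library, and the 5xFAD groups overlapped. The mean rose from 2.72 ± 0.363 CPM (SD, n = 4) in wild type to 8.08 ± 1.65 CPM (SD, n = 3) in control, a log2 fold change of 1.57 (SE 0.28, 2.97-fold, adjusted p = 0.00134). In repopulated microglia it was 8.17 ± 2.246 CPM (SD, n = 3), a log2 fold change of 1.58 over wild type (2.997-fold, adjusted p = 0.00319). Both calls held under all 23 alternatives. No difference between the 5xFAD groups was detectable, at a log2 fold change of 0.015 with an interval from -0.61 to 0.64 and an adjusted p of 0.985. The interval still holds differences of up to 0.64 on this scale. Wild-type 3, the library with the most neuron marker RNA, had the lowest Egr1 of all 10, but only by 50 counts against 52 in wild-type 1. The part of neuron RNA in the Egr1 levels was not tested.

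Btg2 (Entrez 12227, chr1:134074865-134079155) encodes an antiproliferative protein that promotes mRNA deadenylation and is a known p53 target. It stood at 183, 199.9, 197 and 202 CPM in wild-type 1 to 4, at 94.8, 76.0 and 109 CPM in control 1 to 3, and at 189, 190.3 and 159.6 CPM in repopulated 1 to 3. Control libraries lay below all others, and the repopulated libraries overlapped with wild type. Btg2 fell from 195 ± 8.60 CPM (SD, n = 4) in wild type to 93.3 ± 16.6 CPM (SD, n = 3) in control. The log2 fold change was -1.07 (SE 0.14, 2.09-fold, adjusted p = 0.000106), a call that held under all 23 alternatives. The repopulated mean was 179.7 ± 17.4 CPM (SD, n = 3), higher than control by a log2 fold change of 0.945 (SE 0.15, 1.93-fold, adjusted p = 0.0158). This second call, but not the size of the difference, changed when single libraries were left out. The adjusted p rose to 0.0708 without control 1, 0.0725 without control 2, 0.113 without repopulated 1 and 0.135 without repopulated 2, while the log2 fold change stayed between 0.82 and 1.07. Over all genes, 2, 4, 4 and 0 were called in these fits, in the same order, against 71 with all libraries. When the model also held a term for Y-linked transcripts the adjusted p of Btg2 was 0.0527. Against wild type the repopulated libraries differed by -0.12 on the log2 scale (interval -0.41 to 0.17, adjusted p = 0.767).

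Junb (Entrez 16477, chr8:84976909-84978748) encodes a Jun protein that activates AP-1 sites more weakly than Jun and can oppose it. The wild-type libraries held 16.9, 8.88, 8.02 and 11.9 CPM, the control libraries 5.57, 2.42 and 6.84 CPM, and the repopulated libraries 9.17, 12.3 and 8.75 CPM, each in order of library number. All control libraries were below all others, and the repopulated libraries lay within the wild-type range. Junb fell from 11.4 ± 4.03 CPM (SD, n = 4) in wild type to 4.94 ± 2.27 CPM (SD, n = 3) in control, a log2 fold change of -1.21 (SE 0.35, 2.31-fold, adjusted p = 0.0259). Without control 2, the lowest of all libraries for Junb, the log2 fold change was -0.88 and the adjusted p 0.102. The call was also lost without wild-type 1 (0.0739), wild-type 4 (0.0544) or control 1 (0.065), with the 2 groups fitted alone (0.0536), with a Y-linked term (0.0504) and with a block for the replicate number (0.0702). Between repopulated and control the log2 fold change was 1.03 (interval 0.25 to 1.80, adjusted p = 0.162), not called although the libraries did not overlap.

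Jun (Entrez 16476, chr4:95049036-95052222) encodes the main activating Jun protein. Its levels were 15.97, 11.4, 10.2 and 14.0 CPM in wild-type 1 to 4, 11.3, 12.6 and 8.86 CPM in control 1 to 3, and 9.58, 10.2 and 10.1 CPM in repopulated 1 to 3. The groups overlapped, and wild-type 1 and 4 were the highest. The log2 fold change was -0.24 for control over wild type (interval -0.70 to 0.22, adjusted p = 0.477), -0.13 for repopulated over control (-0.62 to 0.36, adjusted p = 0.812) and -0.37 for repopulated over wild type (-0.83 to 0.09, adjusted p = 0.478). The interval of control over wild type does not reach the size of the Btg2 difference.

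Jund (Entrez 16478, chr8:70697739-70700616) encodes the Jun protein that is present in most resting cells. It stood at 12.8, 7.46, 11.9 and 7.95 CPM in wild-type 1 to 4, at 8.57, 7.51 and 9.43 CPM in control 1 to 3, and at 7.28, 9.64 and 7.60 CPM in repopulated 1 to 3. Wild-type 1 and 3 were high and wild-type 2 and 4 low, and both 5xFAD groups overlapped with that group. None of the 3 differences was called, with log2 fold changes of -0.235 (control over wild type), -0.06 (repopulated over control) and -0.29 (repopulated over wild type) and adjusted p values of 0.547, 0.938 and 0.671.

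Fos (Entrez 14281, chr12:85473890-85477274) is the gene most used as a mark of recent cell activation. It was covered by 0 to 42 counts a library. The levels were 1.45, 1.99, 0.15 and 0.27 CPM in wild-type 1 to 4, 0.64, 0 and 1.60 CPM in control 1 to 3, and 1.26, 0.83 and 0.44 CPM in repopulated 1 to 3. Libraries of the same group differed more than the groups did. The 0 in control 2 allows a level of up to 0.15 CPM, the worth of 3 counts, for counting error only. The intervals of the log2 fold change were wide, from -2.68 to 1.96 for control over wild type, -2.30 to 2.63 for repopulated over control and -2.49 to 2.11 for repopulated over wild type. The adjusted p values were 0.852, 0.959 and 0.967. A difference in Fos was thus not detectable with these counts and this spread between libraries, and changes as large as those of Atf3 or Egr1 lie inside the intervals.

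Fosb (Entrez 14282, chr7:19302696-19310118) encodes a Fos protein with a long-lived splice form in neurons. It had 15 counts in all, 4 in wild type, 2 in control and 9 in repopulated microglia, of which 8 were in repopulated 3. It did not pass the filter on low counts. With no filter, none of the comparisons was called, at adjusted p values of 0.93, 0.687 and 0.771.

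Since Fos and Fosb were so low, the remaining Fos family was looked at, after values had been seen. Fosl2, which encodes the Fos-related protein Fra-2, had 4.17, 4.02, 4.11 and 3.92 TPM in wild-type 1 to 4, 1.25, 2.35 and 2.27 TPM in control 1 to 3, and 2.98, 3.35 and 2.60 TPM in repopulated 1 to 3. It made up most of the summed TPM of Fos, Fosb and Fosl2 in every group mean. Its log2 fold change for control over wild type was -0.72 (adjusted p = 0.0421), and that call was lost in 18 of 23 alternatives, with log2 fold changes from -0.85 to -0.47. Fosl1 was not analysed here. The summed Jun family stood at 27.2 ± 9.12 TPM (SD, n = 4) in wild type, 13.8 ± 1.33 TPM (SD, n = 3) in control and 19.7 ± 3.39 TPM (SD, n = 3) in repopulated microglia. The summed Fos family stood at 5.00 ± 0.887, 2.51 ± 0.864 and 3.74 ± 0.552 TPM in the same groups. Jun family transcripts exceeded Fos family transcripts 3.53-fold to 8.28-fold in single libraries, with no separation of the groups. These sums were not tested. For these genes TPM set control further below wild type than CPM did, so the sums do not give the size of a group difference. Mean Jun was 5.13 TPM in control and 7.75 TPM in wild type, against 10.9 and 12.9 CPM. Mean Fosl2 was 1.96 and 4.055 TPM in these groups, against 7.93 and 13.1 CPM.

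Ier2 (Entrez 15936, chr8:84661331-84662852) encodes a nuclear protein induced by growth factors. It stood at 7.81, 8.55, 15.2 and 8.09 CPM in wild-type 1 to 4, at 8.47, 2.67 and 9.95 CPM in control 1 to 3, and at 11.4, 12.5 and 10.5 CPM in repopulated 1 to 3. The repopulated libraries lay above all control libraries, and both overlapped with wild type. The log2 fold change was 0.705 for repopulated over control (interval -0.12 to 1.53, adjusted p = 0.346) and 0.32 without control 2. For control over wild type it was -0.49 (adjusted p = 0.379), and -0.10 without control 2. With the libraries of near absent Y-linked transcripts left out, control 2 is the only control, assumed to vary like the other groups. The log2 fold changes were then 2.11 (adjusted p = 0.0481) for repopulated over control and -1.94 (0.0322) for control over wild type.

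Dusp1 (Entrez 19252, chr17:26505591-26508472) encodes a phosphatase that switches MAP kinases off and is also induced by glucocorticoids. Its levels were 1.88, 3.18, 6.90 and 4.18 CPM in wild-type 1 to 4, 4.38, 2.62 and 4.10 CPM in control 1 to 3, and 2.61, 5.69 and 6.85 CPM in repopulated 1 to 3. The 3 groups overlapped over most of their range. The log2 fold changes were -0.12 for control over wild type (adjusted p = 0.875), 0.45 for repopulated over control (0.653) and 0.32 for repopulated over wild type (0.818). Dusp1 and Btg2 share the cAMP response element shown above, and of the 2 only Btg2 was called in any comparison. The Dusp1 intervals were wide, from -1.07 to 0.82 for control over wild type and -0.56 to 1.45 for repopulated over control. They reach the Btg2 log2 fold changes of -1.07 and 0.945. The 2 genes are thus not shown to differ in pattern.

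**Figure D3:**
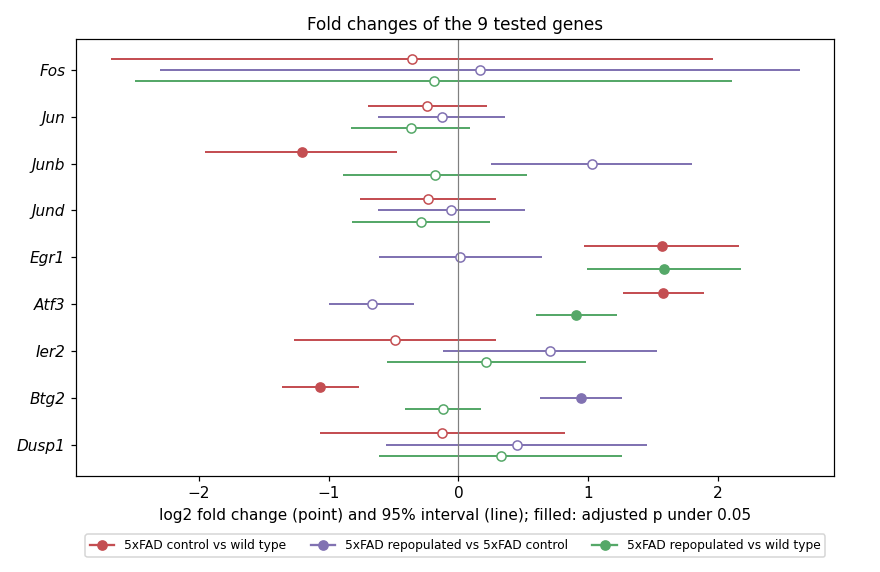
Log2 fold change (points) and 95% interval (lines) of the 9 tested genes in the 3 comparisons, with filled points at an adjusted p under 0.05. Filled points are Egr1, Atf3, Junb and Btg2 for control over wild type, Btg2 for repopulated over control, and Egr1 and Atf3 for repopulated over wild type.

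The called genes can be set beside the number whose groups did not overlap. For control and wild type these were the same 4 genes that were called, against 26.7% of all tested genes with no overlap. For repopulated and control they were Junb, Ier2, Btg2 and Atf3, of which Btg2 alone was called, against 30.7% of all genes. For repopulated and wild type they were Egr1 and Atf3, against 16% of all genes.

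Single libraries weighed on several of these values. Control 2 had the lowest level among the controls for 6 of the 10 genes, namely Fos, Junb, Jund, Ier2, Btg2 and Dusp1, and the highest for 3. Among the repopulated libraries, repopulated 3 was lowest for 5 and repopulated 2 highest for 6. The share of all genes with such a low or high library was not counted, so these counts are not a trait of the 10 genes. Control 2 was also the library with the highest summed neutrophil markers, at 325 CPM against 18.3 and 25.7 CPM in the other controls. The same sum ran from 32.7 to 256.5 CPM in wild type and from 68.5 to 170.4 CPM in repopulated libraries. The part of these markers in the result was not tested. Wild-type 3 had the highest Ier2, Dusp1 and Atf3 among the wild-type libraries and the lowest Fos, Junb, Jun and Egr1. Neuron markers, low throughout, moved with group too. Their sum was 11.6 to 67.5 CPM in wild type, 4.68 to 8.52 CPM in control and 5.53 to 11.5 CPM in repopulated libraries. Of the 5 neuron markers tested, 1 was called between control and wild type, as lower, and 3 had an unadjusted p under 0.05. All 5 had a log2 fold change below 0 there, with a median of -1.97. None of the 10 neuron markers was at 0 in all libraries of a group. Their part in the lower Btg2 and Junb of the control group was not tested. Monocyte and border macrophage markers summed to 78.5 to 156 CPM in wild type, 97.2 to 204.7 CPM in control and 68.5 to 105 CPM in repopulated libraries. Of these 10 markers, none was called between control and wild type (0 at an unadjusted p under 0.05), and 1 was lower in repopulated than in control. Between repopulated and wild type 1 was called, as lower, and 2 had an unadjusted p under 0.05. There 9 of the 10 had a log2 fold change below 0, with a median of -0.65. Their part in the results was not tested.

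Base composition also moved with the comparisons. Over 12226 genes, Spearman's rho of the log2 fold change with GC content was -0.263 for control over wild type, 0.436 for repopulated over control and 0.135 for repopulated over wild type, with genes as points that share the same libraries. Jund (67.1% GC), Junb (62.6%) and Ier2 (60.9%) are among the most GC-rich of all, with 99.9%, 99.2% and 97.9% of tested genes lower, whereas Btg2 (49.7%) is near the middle. After a correction for GC content and length, the log2 fold change of repopulated over control was 0.68 for Junb and 0.43 for Ier2, down from 1.03 and 0.705. Egr1 turned from 0.015 to -0.35, not called in either case. Btg2 moved little, from 0.945 to 0.91, and Atf3 from -0.67 to -0.79, now called. In the comparison with wild type, Junb in control moved from -1.21 to -0.99 (adjusted p = 0.013) and stayed called, as did Atf3, Egr1 and Btg2. The plot of the 3 settings shows these shifts.

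**Figure D4:**
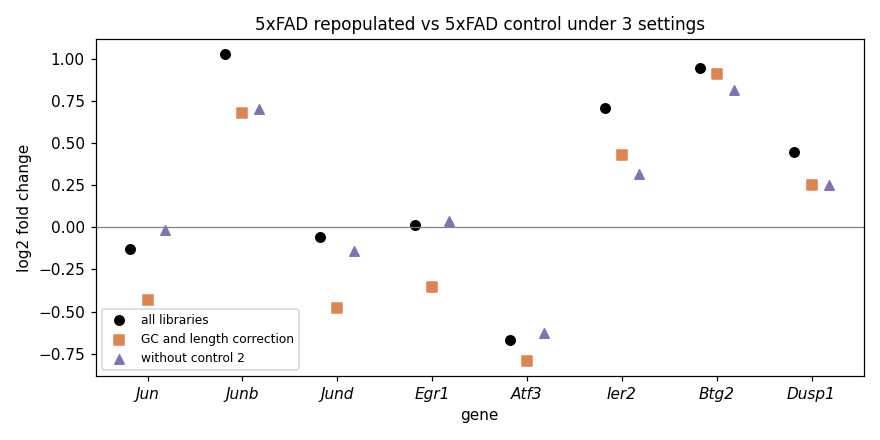
Log2 fold change of repopulated over control for 8 of the tested genes (Fos left out for its wide interval), with all libraries, after correction for GC content and length, and without control 2. Btg2 and Atf3 keep their place in all 3, while Junb falls from 1.03 to 0.68 and 0.70 and Ier2 from 0.705 to 0.43 and 0.32.

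The genes varied together only in part over the 10 libraries. Across libraries of all groups, log2 CPM of Egr1 and Atf3 had a Pearson r of 0.86, and Junb and Btg2 one of 0.85, while Btg2 and Atf3 were opposed at -0.85. Once group means were removed, the Egr1 and Atf3 value was -0.15 and the Btg2 and Atf3 value -0.27; neither relation was seen within groups at that strength. Junb and Btg2 kept 0.61, and Ier2 and Btg2, at 0.68 across all libraries, had 0.78 within groups. These values describe 10 libraries that share groups and depth.

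Other genes of the early response were read from lists. Of 32 tested further immediate early genes, 2 were higher and 3 lower in control than in wild type, and none was called between repopulated and either group. At an unadjusted p under 0.05 there were 5 genes in each of these last comparisons. DESeq2 called 2 between repopulated and control and 0 between repopulated and wild type, and limma-voom called 0 and 1. Egr2, a close relative of Egr1, rose from 3.09, 0.52, 0 and 1.53 CPM in wild-type 1 to 4 to 10.8, 13.2 and 15.4 CPM in control 1 to 3, a log2 fold change of 3.35 (adjusted p = 0.00881). It had 6.65, 7.49 and 6.81 CPM in the repopulated libraries, above all wild-type and below all control libraries, with neither difference called (adjusted p = 0.101 and 0.54). The steps thus resembled those of Atf3 more than those of Egr1, by levels alone. Nfkbiz, an atypical inhibitor of NF-kB, rose in control by 1.06 on the log2 scale (adjusted p = 0.00313). Nfkbia, the classical inhibitor, fell by 0.61 (adjusted p = 0.0237), and Klf10, a zinc finger gene induced by TGF-beta, fell by 1.495 (adjusted p = 0.0224), calls lost in 5 and 8 of 23 alternatives. The list's median log2 fold change was -0.15, against -0.06 for all genes.

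Among 24 further basic leucine zipper genes, possible partners of Fos, Jun and Atf3 proteins, 3 were higher and 4 lower in control than in wild type. None was called between repopulated and control, where 6 had an unadjusted p under 0.05, DESeq2 called 1 and limma-voom 0, and 1 was higher in repopulated than in wild type. Maff, a small Maf gene without an activation domain, was at 0 counts in wild-type 1 to 4, against 1.97, 1.56 and 2.50 CPM in control 1 to 3 and 0.76, 0.79 and 1.06 CPM in repopulated 1 to 3. Set against 3 counts over the pooled wild-type group, it was at least 57.0-fold higher in control and at least 24.6-fold higher in repopulated libraries. It was called in both comparisons (adjusted p = 0.00034 and 0.00274). Crem, a cAMP response factor, stood at 17.9, 19 and 17.3 CPM in control 1 to 3, at 14.0, 13.2 and 12.2 CPM in repopulated 1 to 3 and at 9.36, 9.17, 9.48 and 6.96 CPM in wild-type 1 to 4. It rose by 1.05 on the log2 scale in control (adjusted p = 0.00125), and its repopulated level lay between the others, with no difference called (adjusted p = 0.109 and 0.23). Batf3 and Atf7 were lower in control, with log2 fold changes of -0.80 (adjusted p = 0.00556) and -0.84 (adjusted p = 0.0163).

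Of 32 tested genes of the MAP kinase pathway and of SRF, the inputs to immediate early promoters, 1 was higher and 2 lower in control than in wild type, 1 was higher in repopulated than in control, and none was called between repopulated and wild type, where 2 had an unadjusted p under 0.05 and DESeq2 and limma-voom called 0. Rps6ka1, which encodes the kinase RSK1 downstream of ERK, stood at 269, 182, 187 and 250.5 CPM in wild-type 1 to 4, at 105, 90.4 and 122 CPM in control 1 to 3 and at 180.2, 199.8 and 175 CPM in repopulated 1 to 3. This is the same order as for Btg2. Its log2 fold change in control was -1.07 (adjusted p = 0.000387), and it was higher by 0.81 in repopulated microglia (adjusted p = 0.0496), the latter lost in 14 of 23 alternatives. Mapk3, which encodes ERK1, was not called in any comparison (adjusted p = 0.401 for control over wild type and 0.381 for repopulated over wild type). All repopulated libraries were still above all control libraries for it. That log2 fold change was 0.745 (interval 0.22 to 1.27, adjusted p = 0.14). The factor gene Atf1 was higher in control by 0.48 (adjusted p = 0.0256) and the kinase gene Map2k6 lower, at -0.55 (adjusted p = 0.0459). These 2 calls were lost in 11 and 15 of 23 alternatives.

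Because immediate early genes can rise during tissue handling, 12 genes that have been reported to rise with them in dissociated microglia were examined. Among them are cytokine genes and the surface protein gene Cd83. Of 10 tested, 4 were higher in control than in wild type and the same 4 were higher in repopulated than in wild type, with none lower. Between repopulated and control none was called, 2 had an unadjusted p under 0.05, and DESeq2 called 2 and limma-voom 1, as lower. Ccl3, a chemokine, stood at 318, 311 and 313 CPM in control 1 to 3, at 128, 132 and 234 CPM in repopulated 1 to 3, and at 18.9, 17.9, 24.5 and 16.4 CPM in wild-type 1 to 4. The log2 fold changes over wild type were 4.02 (adjusted p = 1.42e-08) and 3.08 (adjusted p = 2.05e-07). Ccl4, Csf1 and Cd83 rose likewise in control, by 2.79, 3.40 and 1.24 on the log2 scale. These genes are also known as part of the response of microglia to amyloid, and the part of handling in the result was not tested.

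**Figure D5:**
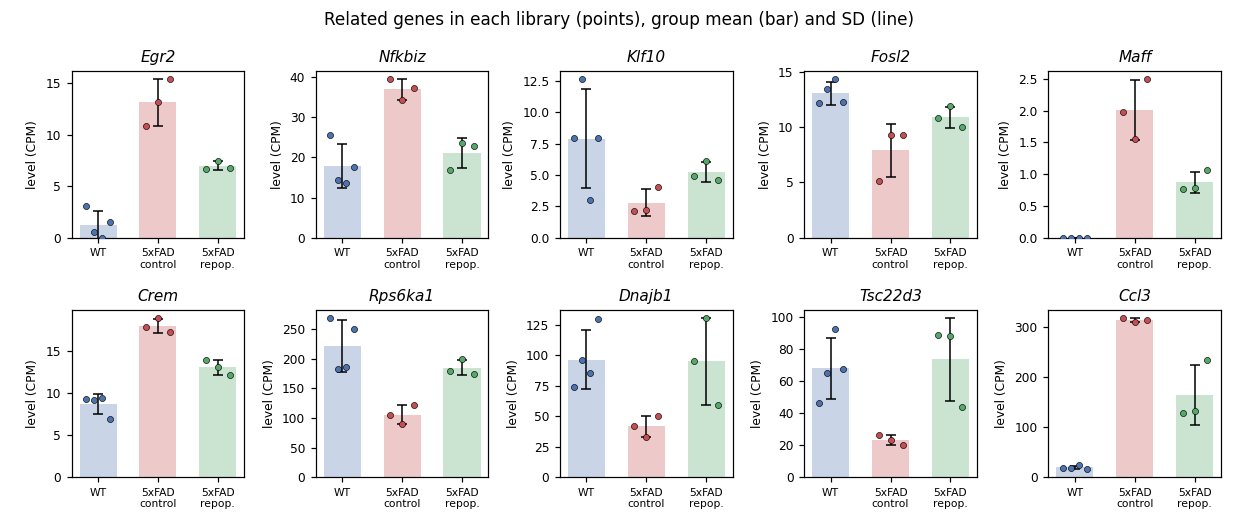
Level (CPM) of 10 related genes in each library (points), with bars for the group mean and lines for the SD, cut off at 0; the vertical scale differs between panels. Egr2, Maff, Crem and Ccl3 step down from control to repopulated to wild type, whereas Rps6ka1, Dnajb1 and Tsc22d3 are lowest in the control libraries.

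Among the genes whose log2 CPM over the 10 libraries was most like the mean of the 9 tested members were Tle5 (Pearson r 0.955), Arhgef7 (0.954), Ppil1 (0.941) and Syngr2 (0.935). For single genes, the most alike was Ctsl for Atf3 (r 0.996), Ldb1 for Junb (0.984), 0610040J01Rik for Btg2 (0.98), Eif3f for Egr1 (0.965), Mdc1 for Jun (0.962), Ppp1ca for Ier2 (0.96), Kars for Dusp1 (0.947), Gpr89 for Fos (0.942) and Ttc27 for Jund (0.883). These values come from a search for the highest r over all tested genes at a mean of 10 CPM or more, in 10 libraries. The mean of the members itself was lowest in control 2, at -0.86 in units of SD, and between -0.18 and 0.5 in the other libraries.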

How the data were processed

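Smart-Seq libraries of 10 samples of sorted hippocampal microglia were analysed from a deposited table of 19782 genes. Its estimated counts (expected counts, not normalised), per the file headers, were rounded before testing. Of the nonzero values 20.1% differ from a whole number by more than 0.001. Deposited FPKM values, named so per the file headers, were not used. The deposited TPM, per the file headers, served to compare levels between genes and to describe Fosl2 and the summed Jun and Fos families by group. It was not used in any test. HISAT, Bowtie2 and GRCm38.p6 are named in the submitters' processing notes. The quantifier is not given in the sources used here. Reads of near-identical or antisense genes may be split, since the counting of strand is not given.

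Counts were tested with edgeR 4.0.16 in R 4.3.3 (filterByExpr, TMM, robust quasi-likelihood, 1 model of 3 groups over 10 libraries, Benjamini-Hochberg over 12505 genes at 0.05). CPM use TMM library sizes. A standard error is the size of the log2 fold change divided by the root of its F statistic, and intervals are at 95%. Depth ran from 18501136 to 23286814 counts, and every pair of libraries within a group differed beyond sampling noise. Alternatives were other scalings, DESeq2 1.42.0, limma 3.58.1 (voom), filters (none, or 5 CPM in 3 libraries), a threshold of 0.01, the compared groups alone, a replicate block, a GC and length correction with and without it, a term for Y-linked transcript status, leaving out the libraries under 50 CPM of Y-linked genes, and leaving out each library. The tests were tested on simulated data.

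The 10 members and all gene lists were chosen with earlier results of these data known. All members are named. Of each related list, the up to 4 tested genes with the lowest p in any comparison are named, beside counts for the list, and the genes most like the members by Pearson r at a mean of 10 CPM or more. Fosl2 was named after its values were seen, as were the libraries singled out. Promoter windows of 250 bases came from RefSeq on GRCm38.p6. Some items that the rule names are not reported here.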

Additional observations from a re-analysis of the deposited data

Results flagged for a closer look

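Ier2 in wild-type 3, at 15.2 CPM, lay far from the other 3 wild-type libraries, which held 7.81 to 8.55 CPM. Its gap to the nearest of them exceeded Dixon's 95% limit for 4 values. Chance gives such a value in about 1 in 20 groups. All 10 genes were examined in the wild-type group, so such a value somewhere among them is less rare than that. Ier2 alone passed the limit. Groups of 3 libraries were not examined in this way. Wild-type 3 also held the highest summed neuron, astrocyte and erythrocyte markers, and their part in the value was not tested.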

How the results depend on the processing

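Each value was recomputed under 23 alternatives, or 22 for Fos and Maff, which the filter of 5 CPM leaves out. Of 618 values of the members, 566 kept direction and side of the threshold, 14 lost their call, 7 gained one and 31 changed sign, none of them called on either side. Of 619 values of the other named genes, 519 were kept, 100 lost their call and 0 changed sign. Of 414 counts over lists, 86 moved by more than 1.5 times. The cause of these shifts was not tested. Genes called between control and wild type numbered 2265, against 1037 at a threshold of 0.01, 1202 without the libraries of near absent Y-linked transcripts and 1315 to 2910 when 1 library was left out. Between repopulated and control 71 genes were called, against 698 with DESeq2, 125 with limma-voom, 166 with no filter, 125 with a filter of 5 CPM, 4 at 0.01, 630 with the compared groups alone, 1 with a Y-linked term, 388 without the libraries of near absent Y-linked transcripts and 0 to 328 without 1 library. Between repopulated and wild type 523 were called, against 256 at 0.01, 289 without those libraries and 284 to 688 without 1 library. There the GC and length correction gave 408 higher and 210 lower genes, against 425 and 98. Members called between repopulated and control numbered 1, against 2 with DESeq2, limma-voom, the compared groups alone, the GC and length correction or without the near absent Y-linked libraries, 0 at 0.01 or with a Y-linked term, and 0 to 2 without 1 library.

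Replicate numbers did not pair the libraries: same-numbered libraries had correlations of their deviations from -0.105 to 0.071. With the replicate number as a block, 1464, 25 and 376 genes and 3, 1 and 2 members were called in the 3 comparisons, and with the GC and length correction too, 35 genes between repopulated and control. The block changed 1 member call, that of Junb (log2 fold change -1.18, adjusted p 0.0702).

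Signs changed for log2 fold changes near 0. For control over wild type these were Dusp1 with the block (0.10; 0.13 with the GC correction too; -0.35 to 0.26 without 1 library), Fos without 1 library (-1.57 to 0.27) and Jun with the GC correction (0.001). For repopulated over control these were Egr1 (-0.008 with DESeq2 factors and with DESeq2, -0.007 with limma-voom, -0.013 with a Y-linked term, 0 with the block, -0.35 with the GC correction, -0.33 with both, -0.028 without the near absent Y-linked libraries, -0.16 to 0.22 without 1 library), Fos (-0.41 to 1.38 without 1 library) and Jund (0.13 without the near absent Y-linked libraries, -0.19 to 0.024 without 1 library). For repopulated over wild type these were Fos (0.37 with limma-voom, 0.70 with a Y-linked term, 0.46 without the near absent Y-linked libraries, -0.59 to 0.44 without 1 library), Junb (-0.35 to 0.082 without 1 library) and Ier2 (-0.03 with the GC correction and block). Fos rests on 0 to 42 counts a library, and Fosb on 15 counts in all.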

Other observations

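Genes mostly outside the early response proper, but tied to it by shared signals, were read from 2 further lists. Over all tested genes, 18.1% were called between control and wild type, 0.568% between repopulated and control and 4.18% between repopulated and wild type. The genes named are those with the lowest p of each list and do not stand for the list. Of 12 tested genes induced by glucocorticoids, as Dusp1 is, 1 was higher and 2 lower in control than in wild type and 1 was higher in repopulated than in control. The 2 lower genes were Tsc22d3 and Nfkbia, and Nfkbia was already counted with the further immediate early genes. None was called between repopulated and wild type, where 3 had an unadjusted p under 0.05 and DESeq2 and limma-voom called 0. Tsc22d3, which encodes the glucocorticoid-induced leucine zipper protein GILZ, stood at 46.6, 65.3, 92.8 and 67.6 CPM in wild-type 1 to 4, at 26.1, 23.2 and 19.9 CPM in control 1 to 3, and at 88.8, 88.7 and 43.9 CPM in repopulated 1 to 3. All control libraries were below all others. Its log2 fold change in control was -1.56 (adjusted p = 0.000764, edgeR's quasi-likelihood test), and it was higher by 1.68 in repopulated microglia (adjusted p = 0.0158). The second call was lost in 9 of 23 alternatives. Mt1, a metallothionein gene, rose in control by 1.32 (adjusted p = 0.00815), and Klf9 was not called in any comparison. Dusp1, of the same signal, was not called.

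Of 14 tested heat shock genes, which encode chaperones, 1 was higher and 1 lower in control than in wild type, and none was called in the other comparisons, where 5 (repopulated over control) and 0 (repopulated over wild type) had an unadjusted p under 0.05. DESeq2 called 1 and 0 there, and limma-voom 0 and 0. Dnajb1, an Hsp40 co-chaperone gene, stood at 73.9, 95.9, 85.9 and 130.03 CPM in wild-type 1 to 4, at 41.7, 33.1 and 50.02 CPM in control 1 to 3, and at 95.5, 131 and 59.1 CPM in repopulated 1 to 3. The control libraries again lay below all others. Its log2 fold change in control was -1.21 (adjusted p = 0.00394), and between repopulated and control it missed the threshold (adjusted p = 0.0535). Hsp90aa1, a cytosolic chaperone gene, was higher in control by 0.55 (adjusted p = 0.032), a call lost in 9 of 23 alternatives. Hspe1 and Hspa1b were not called.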
